A study of Oryza sativa with 4 samples.

Results

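Protein disulfide isomerases (PDIs) are enzymes of the endoplasmic reticulum (ER) that form, break and rearrange disulfide bonds in newly made secretory proteins. They carry thioredoxin-like domains whose paired cysteines do this chemistry, they are re-oxidised by other ER enzymes, and several also hold unfolded chains as chaperones. In rice, the best studied roles of the PDI-like (PDIL) enzymes are in the seed, where they fold storage proteins, and leaf cells too make secretory proteins that carry disulfide bonds.

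The PDIL genes described here were found by name. A probe set (the group of short probes that reads 1 transcript) belonged to the family where the probe-to-gene table gave 1 gene whose symbol or synonym was PDIL1-1, PDIL1-2, PDIL1-3, PDIL1-4, PDIL2-1, PDIL2-2, PDIL2-3, PDIL3-1, PDIL4-1 or PDIL5-1. These 10 names led to 9 genes, read by 10 probe sets, of the 17905 genes with a probe set of their own. The gene table carries 2 naming schemes, and 2 of the names point to a pair of genes each. In the text below, PDIL1-4 is LOC4327971, which the second scheme calls PDIL2-1. PDIL2-1 is LOC4337858, which the second scheme calls PDIL4-1, and PDIL2-2 (LOC4326806) is its PDIL4-2. PDIL2-3 is LOC4347226, the PDIL5-1 of the second scheme, while PDIL5-1 here is LOC4332486. PDIL3-1 (LOC4340223) is also listed as PDIL1-5. The other genes are PDIL1-1 (LOC4350002), PDIL1-2 (LOC4335906) and PDIL1-3 (LOC4329652), each with 1 PDIL name.

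RNA came from leaves of rice plants (Oryza sativa) 3 weeks old, grown without stress treatment, either wild type (WT) or OsBIERF3-OE. The second genotype overexpresses OsBIERF3, which encodes an ERF, a plant transcription factor class named after the ethylene response. Each genotype had 2 samples, 1 Affymetrix array of 1 colour per sample. The labels call the samples of a genotype biological replicates, without saying whether a sample was 1 plant or a pool, and p-values measure the spread between these samples. They name neither the cultivar, the promoter of the transgene nor the number of lines. The question is which PDIL transcripts differ in leaf level when OsBIERF3 is overexpressed.

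Values are signal intensities in array units, brought to nearly 1 distribution on all arrays before deposit, with array medians of 19.7 to 20.3. As a background level served 33 negative controls, control probe sets picked by name as not meant to read rice transcripts. Whether their probes match a rice transcript was not checked. The brightest of these controls lay at 25.1 to 28.0 on the 4 arrays. Of 6 green leaf markers, 5 were above background on all arrays and RBCS1 on none. Their summed signal was 45487 to 45600 in WT and 40609 to 40726 in OsBIERF3-OE: RCA and PSAG were called lower, CAB2R and GLO1 lay below WT without passing, and RBCS, for the small subunit of Rubisco, lay above WT without passing. Of 2 root markers, LSI2 was not above background on any array, while LSI1 read 283 and 235 in WT and 185 and 103 in OsBIERF3-OE, apart but not past the test (log2 change -0.90, limma adjusted p = 0.0849). Of 6 endosperm markers 3 were not above background on any array, nor were any of 3 anther and pollen markers. The summed endosperm signal was 2135 to 2248 in WT and 1425 to 1461 in OsBIERF3-OE. Most of it came from GLB1 (LOC4337720), at 1594 and 1486 in WT, and GLUA2, at 603 and 598, both called lower in OsBIERF3-OE. GLUA2 has 2 probe sets that disagree, and the gene table does not say that GLB1 encodes a globulin. Markers of dividing cells differed between the genotypes: 4 of 6 (PCNA, CDKB2-1, MCM2 and CYCB1-1, LOC4327547) were higher in OsBIERF3-OE, and the summed signal of the 6 was 326 to 339 in WT and 3473 to 3586 in OsBIERF3-OE. The shoot apex gene OSH1 was not above background on any array. The ratio of 3′ to 5′ signal, a sign of RNA or cRNA integrity, was lower in OsBIERF3-OE for 3 pairs of actin control probe sets (log2 differences -0.55 to -0.85), for GAPDH (-0.71) and for ubiquitin (-0.27), and differed by 0.04 for cyclophilin. Of the 3 actin pairs, 2 share their 5′ probe set. The ratios themselves were 7.94 to 39.9 in WT and 4.81 to 29.1 in OsBIERF3-OE for actin. For GAPDH they were 11.2 to 12.8 in WT and 7.25 to 7.37 in OsBIERF3-OE. Those of ubiquitin and cyclophilin were 1.17 to 1.82 over all arrays. The part of other cell types, dividing cells or RNA integrity in the PDIL results was not tested. In leaf RNA, more cells of a type and more RNA per cell cannot be told apart.

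Of the 9 PDIL genes, 5 rose in OsBIERF3-OE leaves: PDIL1-4, PDIL2-1, PDIL3-1, PDIL1-1 and PDIL2-2, from 2.25-fold for PDIL1-4 to 1.34-fold for PDIL2-2. None fell, and PDIL2-3, PDIL5-1, PDIL1-2 and PDIL1-3 did not pass the test (limma, Benjamini-Hochberg adjusted p under 0.05 over all probe sets tested). Among all 15981 genes tested, 17.2% were called higher and 14.5% lower. Without WT replicate 2 the PDIL count was 2 (PDIL1-1 and PDIL1-4), and without OsBIERF3-OE replicate 2 it was 3 (these and PDIL2-1). At an unadjusted p under 0.05, 6 PDIL genes were higher and 0 lower, beside 24.1% and 24.9% of all genes tested. In 6 of the 9, both OsBIERF3-OE signals lay above both WT signals, which held for 34.4% of all genes tested. The median log2 change (OsBIERF3-OE minus WT) was 0.73 over the 9 genes and -0.04 over all tested probe sets.

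**Figure D1:**
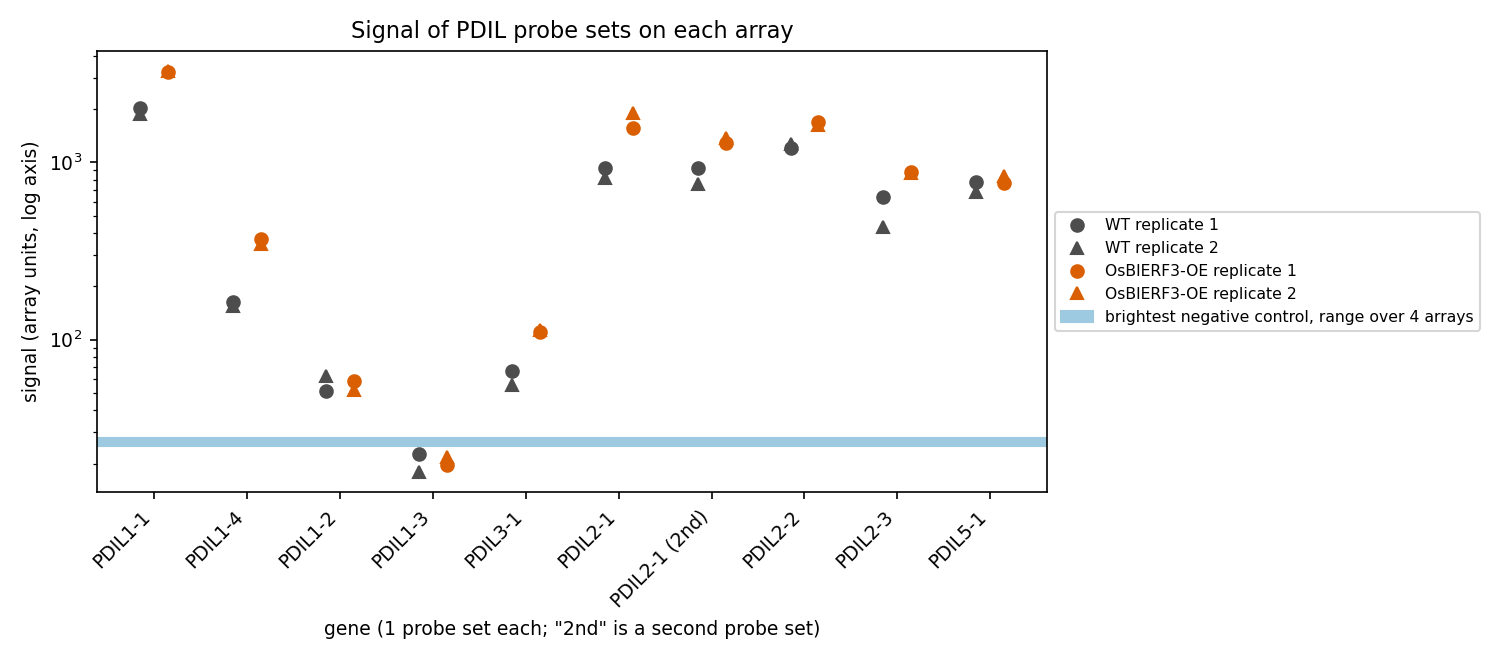
Signal of each PDIL probe set on each of the 4 arrays, on a log axis in array units, with WT in grey and OsBIERF3-OE in orange, circles for replicate 1 and triangles for replicate 2. The orange points lie above the grey ones for PDIL1-1, PDIL1-4, PDIL3-1, PDIL2-2, PDIL2-3 and both probe sets of PDIL2-1, the groups overlap for PDIL1-2, PDIL1-3 and PDIL5-1, and PDIL1-3 lies under the blue band of the brightest negative control (25.1 to 28.0). Heights of different probe sets are not comparable as transcript levels.

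PDIL1-1 is the classical PDI of rice, the product of the Esp2 locus, known for folding the glutelin precursors of the endosperm. Its signal was 2028 and 1864 in the WT samples and 3239 and 3279 in the OsBIERF3-OE samples. The genotypes did not overlap, and the OsBIERF3-OE samples lay closer to each other than the WT samples did. The means were 1946 ± 116 and 3259 ± 27.7 (SD, n = 2 each), a rise of 1.68-fold (95% interval 1.42 to 1.98) with a limma adjusted p of 0.00826. It was past the test without any one of the 4 arrays, at log2 changes of 0.68 to 0.81.

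PDIL1-4 belongs to the PDIs with catalytic domains at both ends of the protein, as in the classical enzyme. It was the most changed of the 9 genes, reading 163 and 154 in WT and 370 and 346 in OsBIERF3-OE. Both OsBIERF3-OE signals were more than double either WT signal. The log2 change was 1.17 ± 0.12 (SE; limma adjusted p = 0.00484), 2.25-fold with a 95% interval of 1.81 to 2.80. Of all tested probe sets, 95.1% had a lower log2 change. The call held whichever array was left out, with adjusted p between 0.0193 and 0.0285.

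The probe set of PDIL3-1, of the kind that reads several transcripts of 1 gene, gave 66.3 and 55.4 in WT and 110 and 113 in OsBIERF3-OE. All 4 signals were above the background level, and the genotypes were apart. The rise was 1.84-fold (95% interval 1.40 to 2.42; limma adjusted p = 0.0179). It did not pass without WT replicate 2 (adjusted p = 0.0798) or without OsBIERF3-OE replicate 2 (0.0690), although the log2 change remained at 0.75 and 0.86.

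PDIL2-1 and PDIL2-2 belong to the PDIs with a pair of catalytic domains at the front of the protein and an alpha-helical domain behind them. PDIL2-1 is the only PDIL gene here with 2 probe sets. The brighter one read 935 and 813 in WT and 1568 and 1889 in OsBIERF3-OE. The other, of the kind whose probes can be shared between transcripts, read 933 and 755 in WT and 1277 and 1365 in OsBIERF3-OE. Both were higher in OsBIERF3-OE with no overlap. Their rises were 1.97-fold (95% interval 1.54 to 2.53; limma adjusted p = 0.0106) and 1.57-fold (1.23 to 2.01; adjusted p = 0.028), and the intervals overlapped. Without WT replicate 2, the log2 changes were 0.88 and 0.50 and neither passed (adjusted p = 0.0516 and 0.11). The second probe set also missed the threshold without OsBIERF3-OE replicate 1 (0.0598) or 2 (0.101).

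PDIL2-2 had the smallest rise among the 5 genes called. It read 1207 and 1269 in WT and 1690 and 1627 in OsBIERF3-OE, so the genotypes were apart by more than the gap within either. The log2 change was 0.42 ± 0.098 (SE; limma adjusted p = 0.0351), 1.34-fold with a 95% interval of 1.13 to 1.59. It did not pass without any one of the 4 arrays (adjusted p of 0.103 to 0.147), with log2 changes of 0.39 to 0.46.

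PDIL2-3 is a PDI of the P5 type, known in rice endosperm for its part in placing cysteine-rich prolamin in protein bodies. Its 1 probe set is of the kind in which some probes may match other transcripts, so its signal is uncertain. It read 640 and 433 in WT and 877 and 865 in OsBIERF3-OE. The OsBIERF3-OE samples were alike and above both WT samples, but the WT samples differed from each other by 0.57 on the log2 scale, the widest gap between replicates of any PDIL probe set. The fold was 1.65 with a 95% interval of 1.16 to 2.36, and the limma adjusted p of 0.0553 missed the threshold. Without WT replicate 1 the log2 change was 1.01 (adjusted p = 0.0236), and without WT replicate 2 it was 0.44 (adjusted p = 0.14).

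PDIL5-1 is a small PDI with a single catalytic domain. It read 770 and 681 in WT and 767 and 835 in OsBIERF3-OE, and the genotypes overlapped. The fold was 1.11 with a 95% interval of 0.894 to 1.37 (limma adjusted p = 0.438). PDIL1-2, a close relative of PDIL1-1, read 51.1 and 62.3 in WT and 58.6 and 51.8 in OsBIERF3-OE. Its fold of 0.977 had a 95% interval of 0.723 to 1.32 (limma adjusted p = 0.91). PDIL1-3, of the same group, read 22.7 and 17.9 in WT and 19.7 and 22.0 in OsBIERF3-OE, not above background on any array, so no fold is given (adjusted p = 0.877). The interval of PDIL5-1 includes a rise as large as that of PDIL2-2, and that of PDIL1-2 ends just short of it. Differences in change between PDIL genes were not tested.

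**Figure D2:**
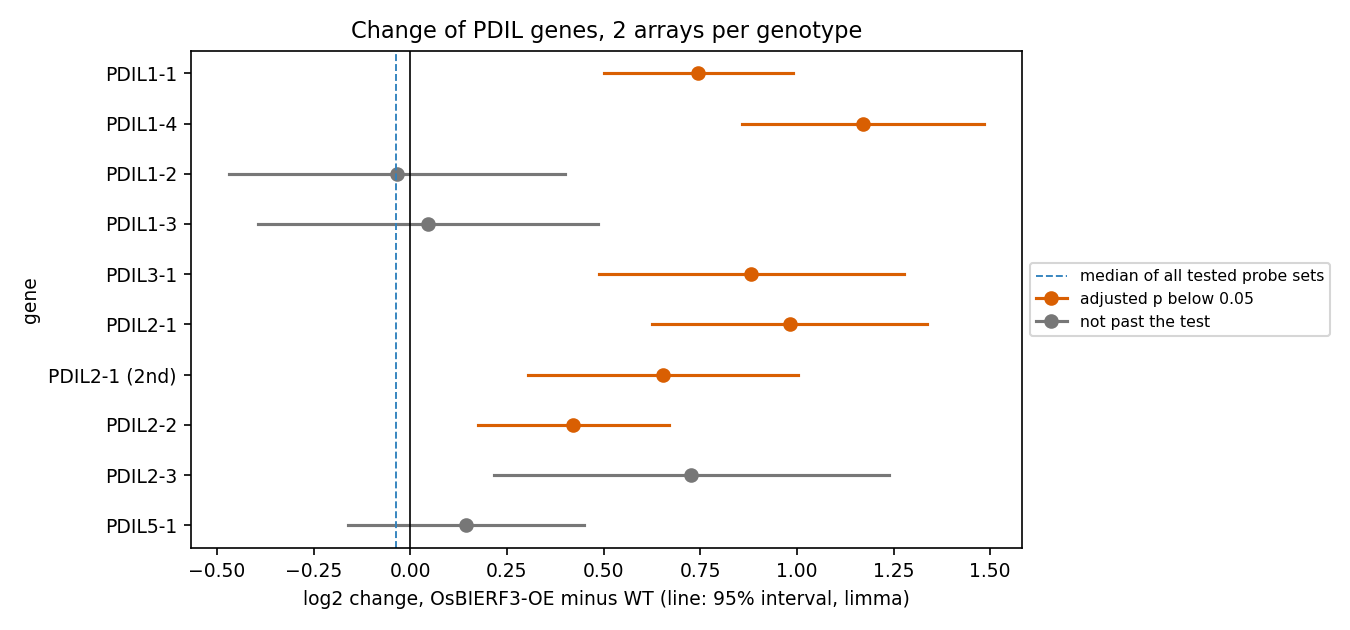
Log2 change of each PDIL probe set, OsBIERF3-OE minus WT, with the 95% interval from limma (2 arrays per genotype), orange where the adjusted p is under 0.05. The orange points run from 0.42 for PDIL2-2 to 1.17 for PDIL1-4, the interval of PDIL2-3 spans 0.22 to 1.24 without passing, and the intervals of PDIL1-2 and PDIL5-1 include the median of all tested probe sets (dashed line, -0.04). PDIL1-3 is drawn but was not above background on any array, so its position has no reading.

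WT replicate 2 was the lower of the WT samples for 7 of the 9 PDIL genes, and for 56.4% of all genes tested. The OsBIERF3-OE replicates differed the same way for 4 of the 9. The scaling of the arrays set the level of every change. Hybridization controls, labelled cRNAs of bacterial and phage origin that are added to each sample, were lower by 0.29 (log2) on the OsBIERF3-OE arrays. With the arrays scaled on them, all log2 changes moved up by that amount, the median of all tested probe sets became 0.25, and 82.7% of the calls across the array were higher in OsBIERF3-OE, against 51.3% as deposited. Relative to that median, PDIL1-4 stood 1.21 higher, PDIL2-1 1.02, PDIL3-1 0.92, PDIL1-1 0.78, PDIL2-3 0.76, PDIL2-2 0.46, PDIL5-1 0.18 and PDIL1-2 0.0040. Under this scaling 6 PDIL genes passed, the 5 above and PDIL2-3. Calls of higher signal also grew across the array, to 7729 of 34355 probe sets tested from 4273 as deposited.

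**Figure D3:**
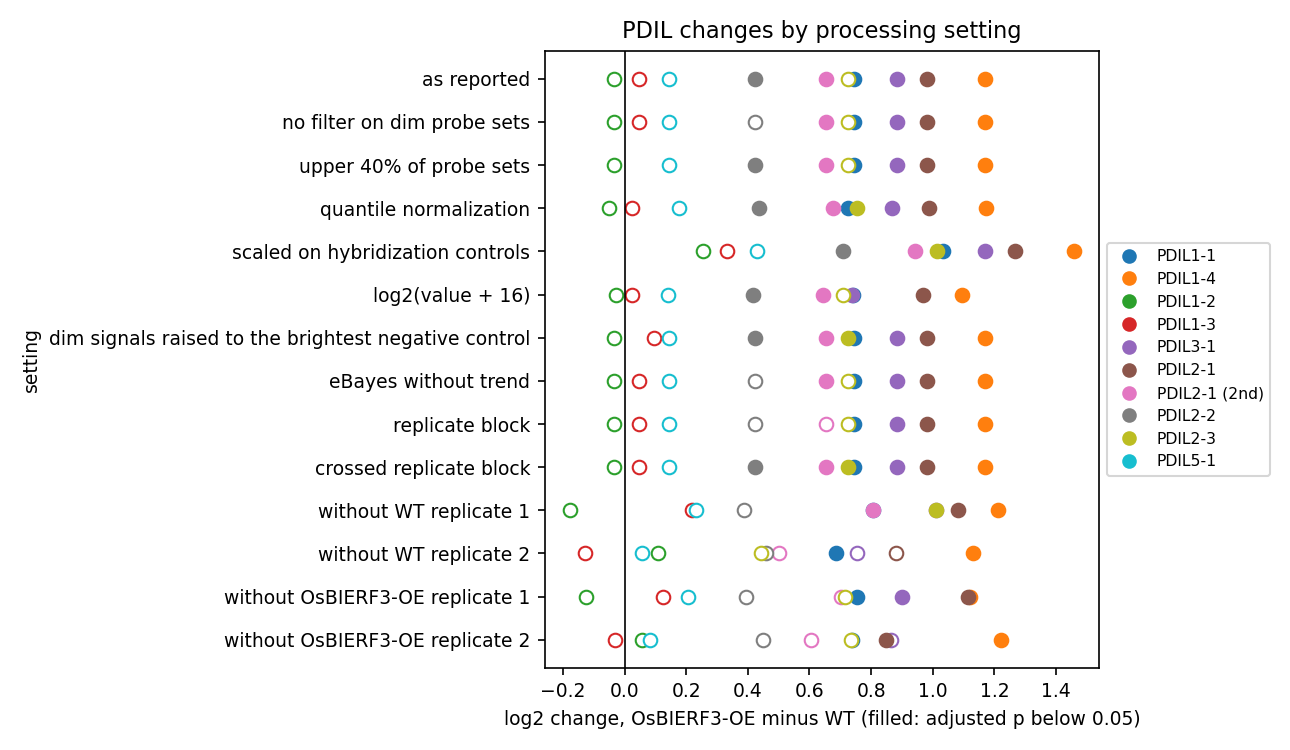
Log2 change of each PDIL probe set under each processing setting, OsBIERF3-OE minus WT, filled where the adjusted p is under 0.05. PDIL1-4 and PDIL1-1 are filled in every row, PDIL2-2 is open in all 4 rows that leave out an array, and scaling on hybridization controls moves every point to the right by 0.29.

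PDIs work beside chaperones that bind unfolded chains in the ER and beside the lectin chaperones of glycoproteins. Of 6 tested genes of ER chaperones and their co-chaperones, 1 rose, 0 fell and 5 did not pass, with a median log2 change of 0.13. Among all genes tested, 17.2% were called higher and 14.5% lower, shares to set beside the counts of this and the following lists. The gene that rose was CRO1 (LOC4342826, also CRT1), which encodes calreticulin, a lectin chaperone that works with PDIs. It read 4368 and 3563 in WT and 6638 and 6828 in OsBIERF3-OE, 1.71-fold higher (limma adjusted p = 0.014), and missed the threshold without OsBIERF3-OE replicate 2 (0.0513). BIP1 (LOC4328075), the main Hsp70 chaperone of the ER, read 4487 and 3761 in WT and 5196 and 5049 in OsBIERF3-OE, apart but not past the test (log2 change 0.32, adjusted p = 0.105). The J-protein genes ERDJ2, ERDJ7 and ERDJ3B, whose products stimulate BiP, had log2 changes of 0.17, 0.069 and 0.085, and that of ERDJ3A was -0.33; none passed. With the arrays put on the hybridization controls, BIP1 (0.61, limma adjusted p = 0.0250) and ERDJ2 (0.46, 0.0436) passed as well, so that 3 of the 6 were called. Under that scaling 7729 of all 34355 probe sets tested were called higher, against 4273 as deposited. The median of the 6 became 0.41, beside 0.25 for all probe sets.

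The unfolded protein response raises PDIL and BiP transcripts when misfolded protein builds up in the ER. Of its 4 tested genes, 1 fell, 0 rose and 3 did not pass. At an unadjusted p under 0.05, 0 were higher, beside 24.1% of all genes tested. The 4 encode a sensor and transcription factors rather than the PDIL and BiP transcripts that the response raises. Of further BiP genes, BIP4 read 4.41 to 4.89, not above background on any array, and BIP2 and BIP3 had no probe set. Whether the response was active was not tested. IRE1 (LOC4343198), the ER sensor whose nuclease splices the OsbZIP50 transcript, read 399 and 388 in WT and 293 and 279 in OsBIERF3-OE, a log2 change of -0.46 (limma adjusted p = 0.0415). It did not pass without any one array (adjusted p 0.0974 to 0.159), nor under the scaling on hybridization controls (log2 change -0.17). BZIP50 (LOC4341554), the spliced target, had a log2 change of -0.23 (limma adjusted p = 0.206). The membrane-bound factor gene BZIP39 had one of 0.019 (adjusted p = 0.912), and BZIP60 one of -0.015 (adjusted p = 0.949). Spliced and unspliced BZIP50 were not told apart here. Of 3 genes of ER-associated degradation, the export and destruction of misfolded proteins, 0 were called by limma and 0 had an unadjusted p under 0.05. HRD1, a ubiquitin ligase gene, had a log2 change of -0.27 (adjusted p = 0.155), which was 0.019 under the scaling on hybridization controls. DER1, a gene of export from the ER membrane, had one of 0.26 (adjusted p = 0.228) and passed under that scaling (0.55, adjusted p = 0.0400).

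A list of 8 further genes held PDIL5-2, PDIL5-4, the oxidase gene QSOX1 and 5 APRL genes, which are named for likeness to adenosine phosphosulfate reductase. Of the 8, 1 rose and 2 fell, with a median log2 change of -0.17, and both that fell were APRL genes. PDIL5-4 (LOC4343420), a membrane-anchored PDI outside the 9 genes, read 814 and 713 in WT and 1035 and 1233 in OsBIERF3-OE, 1.48-fold higher (limma adjusted p = 0.0397). It did not pass without WT replicate 1 (0.0818), WT replicate 2 (0.168) or OsBIERF3-OE replicate 2 (0.145). PDIL5-2 (LOC4335881), another membrane-anchored PDI, had a log2 change of -0.071, and QSOX1, a sulfhydryl oxidase gene, one of -0.0024. These, BIP1, BIP4, the J-protein genes, BZIP50, BZIP39 and BZIP60 were chosen for naming after their values were seen. APRL1, APRL3 and APRL5, given next, were likewise named outside the rule for naming genes. The genes that fell were APRL4 (log2 change -0.59, adjusted p = 0.0178) and APRL2 (-0.71, adjusted p = 0.0284), and APRL1, APRL3 and APRL5 had log2 changes of -0.74, -0.25 and -0.086 without passing. APRL4 did not pass without any one array (0.0568 to 0.0917), and APRL2 passed only without OsBIERF3-OE replicate 1 (0.0494). Neither passed under the scaling on hybridization controls (log2 changes -0.30 and -0.43).

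Thioredoxins share the fold of PDI domains but work in the cytosol, chloroplast and mitochondrion, where they mostly reduce disulfides. Of 12 tested thioredoxin and reductase genes, 4 fell, 1 rose and 7 did not pass, with a median log2 change of -0.51 beside 0.73 for the PDIL genes. TRXF, a chloroplast thioredoxin gene, read 2675 and 3197 in WT and 1869 and 1452 in OsBIERF3-OE (log2 change -0.83, limma adjusted p = 0.0236), and NTRC, a chloroplast reductase gene, had a log2 change of -0.80 (adjusted p = 0.0224). TRXM, another chloroplast thioredoxin, had one of -0.66 (adjusted p = 0.0327). That value is from the brighter of its 2 probe sets, of the kind in which some probes may match other transcripts, so it is uncertain. NTRB, a reductase gene of the cytosolic and mitochondrial system, rose by a log2 change of 0.59 (adjusted p = 0.0338). Without WT replicate 2 the median log2 change of the 12 was -0.42, and without OsBIERF3-OE replicate 2 it was -0.34. In a fit that took same-numbered samples as pairs, 0 of the 12 were called, beside 4540 of all 34355 probe sets tested. Under the scaling on hybridization controls, TRXF was lower and NTRB higher, and the median was -0.23. Of 5 tested green leaf markers, 2 (RCA and PSAG) also fell and 0 rose. RCA has 4 probe sets and PSAG 2, and only the brightest of each was read. The part of these markers in the thioredoxin values was not tested.

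**Figure D4:**
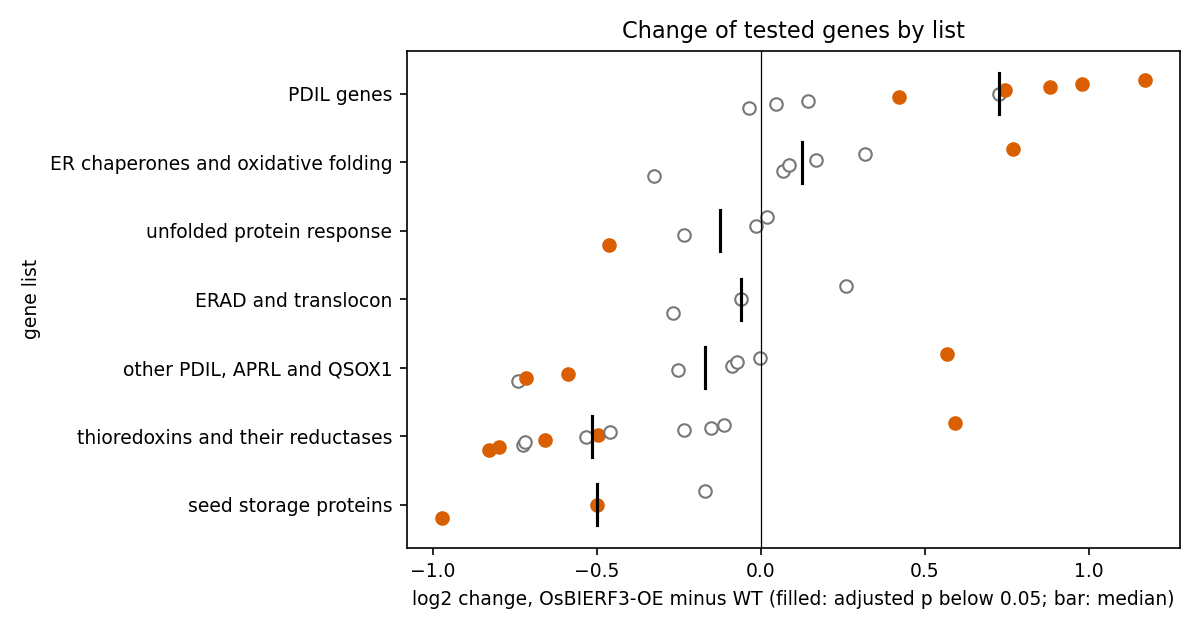
Log2 change of each tested gene, OsBIERF3-OE minus WT, for the PDIL genes and 6 further lists, filled where the adjusted p is under 0.05, with a bar at the median of each list and vertical spread for legibility only. The PDIL bar stands at 0.73, that of ER chaperones at 0.13 and that of thioredoxins at -0.51.

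The best known clients of rice PDILs, the seed storage proteins, were at background in leaf for most genes. Of 8 storage protein names with a probe set, 5 were not above background on any array. For GLUA2, a glutelin gene, the 2 probe sets disagreed: the brighter read 603 and 598 in WT and 318 and 295 in OsBIERF3-OE (log2 change -0.97, limma adjusted p = 0.00645), the other 35.4 to 42.9 on all arrays. GLB1 (LOC4337720) had a log2 change of -0.50 (adjusted p = 0.0244) and did not pass without any one array (0.0678 to 0.114); the gene table does not say that it encodes a globulin.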

How the data were processed

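Leaf RNA of 2 WT and 2 OsBIERF3-OE samples was measured on 1 array each. The deposited values are linear signal intensities, 1 per probe set. Per the submitters' processing notes the authors used MAS5; its version and role, and the steps of background correction and normalization, are not given in the sources used here. Sorted log2 values of each array were within 0.0803 of the mean over arrays, a match that would hide a global shift.

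Groups and replicate numbers came from titles. The 123 control probe sets were left out, values were limited below at 1 and put on the log2 scale, and the upper 60% by mean (34355 probe sets) entered the test in limma 3.58.1 under R 4.3.3 (lmFit, eBayes with trend, genotype alone; 2 residual and 5.28 total degrees of freedom) and Benjamini-Hochberg adjustment at 0.05. All 9 PDIL genes were among them. The script was tested on simulated data. A gene counts by its brightest probe set on average.

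Genes were taken from the platform's probe table and updated with RefSeq names (assembly GCF_034140825.1), with Python 3.11.15 and pandas 2.3.3. Of the probe sets outside the controls, 22436 had 1 gene, 95 several and 34727 none. Only those with 1 gene entered the shares over genes, while all that passed the filter entered the counts and medians over probe sets. Coordinates served only to find the genes next to each PDIL gene, and sequences were not used here. Further lists were matched by name, ignoring hyphens; 3 matches whose other names belong to different genes were dropped. Up to 4 called genes with the largest change were named per list, or the 2 with the smallest p. PDIL members and lists were chosen with earlier results of these data known. Alternatives covered the filter, scaling, offset, background, trend, replicate block, probe set averaging and leaving out each array. The level of OsBIERF3 was not analysed here, so the labels were not checked against it. Precision is limited by having 2 arrays per genotype.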

Additional observations from a re-analysis of the deposited data

How the results depend on the processing

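PDIL1-1, PDIL1-4, PDIL2-1 and PDIL3-1 passed under all 9 alternatives by probe set that kept the 4 arrays, including the crossed pairing described below. Changing the filter, trend or block left their log2 changes as they were. Scaling on hybridization controls added 0.29 to each, so none of these settings could turn a rise into a fall. With 1 array left out, the log2 changes were 0.68 to 0.81 for PDIL1-1 and 1.12 to 1.22 for PDIL1-4. They were 0.85 to 1.12 for PDIL2-1 and 0.75 to 1.01 for PDIL3-1. The number of PDIL genes called, 5 as reported, was 4 to 6 under the other settings and 2 to 5 when 1 array was left out, lowest without WT replicate 2. PDIL2-2 did not pass without the filter on dim probe sets (adjusted p = 0.0507), without the trend (0.0628) or in any fit that left out an array. PDIL2-3 passed with quantile normalization (0.0429), with scaling on hybridization controls (0.0265) and with dim signals raised to the brightest negative control (0.0334). The labels give both genotypes replicates 1 and 2, but same-numbered samples deviated oppositely (r = -0.249 across probe sets), so the numbers do not show a pairing. With the replicate block, 4540 probe sets passed, against 8331 without it, and 4 PDIL genes, PDIL2-2 having an adjusted p of 0.149. With the pairing crossed, chosen after seeing the data, 12339 probe sets and 6 PDIL genes passed. Leaving out 1 array gave 3270 to 6171 probe sets. PDIL1-2 turned from -0.03 to 0.25 (log2) with scaling on hybridization controls, to 0.11 without WT replicate 2 and to 0.056 without OsBIERF3-OE replicate 2. PDIL1-3, not above background, turned from 0.046 to -0.13 and -0.031 in those last fits, and HRD1 to 0.019 with the scaling. Over the fits without 1 array, PDIL1-2 ranged from -0.18 to 0.11 and PDIL1-3 from -0.13 to 0.22. The causes were not tested.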

Other observations

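The protein-coding genes next to each PDIL gene in the RefSeq gene order were looked up, since neighbouring genes can share a change. Of 11 neighbours with a probe set, 10 were tested and 0 passed limma's adjusted p of 0.05, in either direction. Among all genes tested, 17.2% were called higher and 14.5% lower. At an unadjusted p under 0.05, 1 of the 10 passed, beside 24.1% higher and 24.9% lower among all genes tested. PDIL2-1 lies next to ERDJ3B (LOC4337860), which encodes an ER J-protein, whose signal was 693 and 594 in WT and 722 and 641 in OsBIERF3-OE, overlapping between genotypes, while PDIL2-1 was 1.97-fold higher. PDIL2-3 lies next to ACO1 (LOC4347225), an ethylene synthesis gene, with 792 and 616 in WT and 760 and 839 in OsBIERF3-OE and a log2 change of 0.19 (limma adjusted p = 0.424). The metallothionein gene MT1B (LOC4332487), next to PDIL5-1, read 73.3 and 51.5 in WT and 23.7 and 191 in OsBIERF3-OE. Its 2 OsBIERF3-OE samples differed by 3.01 on the log2 scale, while those of PDIL5-1 differed by 0.12. The MT1B signal of 23.7 lay under the brightest negative control of its array (28.0), so the size of the MT1B gap is uncertain.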
